A study of Drosophila melanogaster with 8 samples.

Results

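The microtubule track of axons and the motors that run on it were followed through 10 genes, taken by name from the 17807 genes of the table. They are the microtubule-associated genes futsch, tau, stai, shot and Jupiter, the beta-tubulin gene betaTub60D, the kinesin genes Khc, Klc and unc-104, and the dynein heavy chain gene Dhc64C. All 10 were among the 10575 genes that passed the filter on low values and were tested. The RNA-seq libraries hold total RNA of the central nervous system (CNS) of first instar (L1) larvae of Drosophila melanogaster kept at 25 °C. The wild-type strain Canton-S has 3 libraries. There are 2 libraries of elav5 homozygotes, in which elav is deleted, and 3 of the double mutant elav5/fne, in which elav and fne are both deleted. The larvae were viable homozygotes picked by a visible marker. Mutant larvae come from lines other than Canton-S, so a deletion and other differences between lines cannot be told apart. How far each deletion reaches is not stated. Whether libraries of 1 genotype come from separate animals is also not stated, so the p-values given here cover the spread between libraries, which may be technical.

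Axonal microtubules are polymers of alpha- and beta-tubulin that are bundled and stabilised by associated proteins. Kinesins carry synaptic vesicle precursors, mitochondria and other cargo towards the plus ends at the axon terminal, and cytoplasmic dynein with its cofactor dynactin carries cargo back to the cell body. elav and fne encode neuronal RNA-binding proteins of the ELAV/Hu family, which regulate splicing and 3' end choice of neuronal transcripts. Counts per gene do not separate the isoforms such proteins act on.

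Each library held between 30038106 and 38056274 reads counted in genes, at which 3 reads correspond to between 0.0788 and 0.0999 CPM (reads of a gene per 1000000 reads counted in genes). Such limits cover counting error only. The transcripts of the deleted genes were lower where the labels state a deletion, though reads of both remained. elav was at 607 ± 11.5 CPM in Canton-S (mean ± SD, n = 3), 28.9 ± 6.38 in elav5 (n = 2) and 55.9 ± 4.35 in elav5/fne (n = 3). fne was at 1014 ± 47.5, 1033 ± 135 and 149 ± 27.2 CPM in the same order. Between the mutants elav was higher in elav5/fne, at 1.93 times its elav5 mean (limma, adjusted p = 7.7e-04). The source of the remaining reads was not tested. Rbp9, the family's remaining gene, was at 7.57 ± 0.389, 12.1 ± 0.418 and 18.2 ± 9.34 CPM. The tissue label was checked with marker lists. The 12 neuron markers summed to between 16174 and 17070 CPM per library in Canton-S, between 14284 and 15289 in elav5, and between 7519 and 8870 in elav5/fne, and the 10 neuroblast markers to between 386 and 410, between 389.6 and 474, and between 1064 and 1392 CPM. The 20 muscle markers were present in every library and were uneven, with sums between 1966 and 2365 CPM in Canton-S, 3517 and 1430.3 in elav5 replicates 1 and 2, and 3602, 7455 and 17652 in elav5/fne replicates 1 to 3. The 10 glial markers summed to between 4850 and 7206 CPM over the 8 libraries. In elav5/fne against Canton-S 2 of them rose and 3 fell. Of 11 tested gut markers 7 rose and none fell, and of 10 tested hemocyte markers 4 rose and 1 fell. Over all tested genes 32.5% rose and 26.7% fell, so the glial and hemocyte counts, of 10 genes each, are no result about those cells. None of the 4 tested fat body markers passed by limma, by DESeq2 or at an unadjusted p of limma under 0.05. By edgeR 2 of them were lower. The 8 fat body markers were uneven in Canton-S, with sums of 581, 1272 and 501 CPM in replicates 1 to 3. The median change of those tested was -1.13, and 0.07 without Canton-S replicate 2. With a library left out, the glial markers that fell came to 1 without Canton-S replicate 1, Canton-S replicate 3 or elav5/fne replicate 3, and the gut markers that rose to 4 without Canton-S replicate 2, Canton-S replicate 3, elav5/fne replicate 2 or elav5/fne replicate 3. Of the hemocyte markers 3 rose and 3 fell under quantile normalization, and 1 rose with a mean of 5 CPM as filter. Of all marker genes only Amy-d, a gut gene, was at 0 in every library of a genotype, elav5.

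In elav5/fne against Canton-S, the dynein heavy chain Dhc64C, the microtubule-associated gene futsch, and the kinesin genes unc-104 and Klc fell, and betaTub60D, Jupiter and tau rose. betaTub60D moved furthest, to 153 ± 19.4 CPM from 16.4 ± 5.18 CPM (n = 3 each), and Dhc64C fell furthest, to 503 ± 19.0 from 955 ± 33.0 CPM. In elav5 against Canton-S, futsch fell and tau rose, to levels close to those in elav5/fne, and the other 8 genes did not pass the test. Between the mutants, betaTub60D and Jupiter were higher and Dhc64C, unc-104 and Klc were lower in elav5/fne. The transcripts of stai, Khc and shot did not pass the threshold in any of the 3 comparisons.

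These calls were set beside the share of all tested genes that moved. Changes are given as log2 ratios of CPM + 1 with their standard error (SE), and a gene was called at an adjusted p under 0.05 from limma, fitted over all 8 libraries and adjusted over all 10575 genes. In elav5/fne against Canton-S, 3 of the 10 rose where 32.5% of all tested genes rose, and 4 fell where 26.7% fell. The libraries of both genotypes did not overlap for 8 of the 10, against 69.5% of all genes. In elav5 against Canton-S, 1 of the 10 rose beside 8.29% of all genes, 1 fell beside 11.8%, and 5 did not overlap beside 53.6%. Between elav5/fne and elav5, 2 rose beside 26.8%, 3 fell beside 16.7%, and 5 did not overlap beside 63.7%. With only 10 genes these shares lie near those of all genes, so the numbers of calls are no result about the set. The median log2 change of the 10 was -0.000575 in elav5/fne against Canton-S, 0.09 in elav5 against Canton-S and -0.01 between the mutants, beside 0.07, -0.04 and 0.14 over all tested genes. The 3 comparisons share libraries pairwise, and each gene's values are therefore given side by side.

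**Figure D1:**
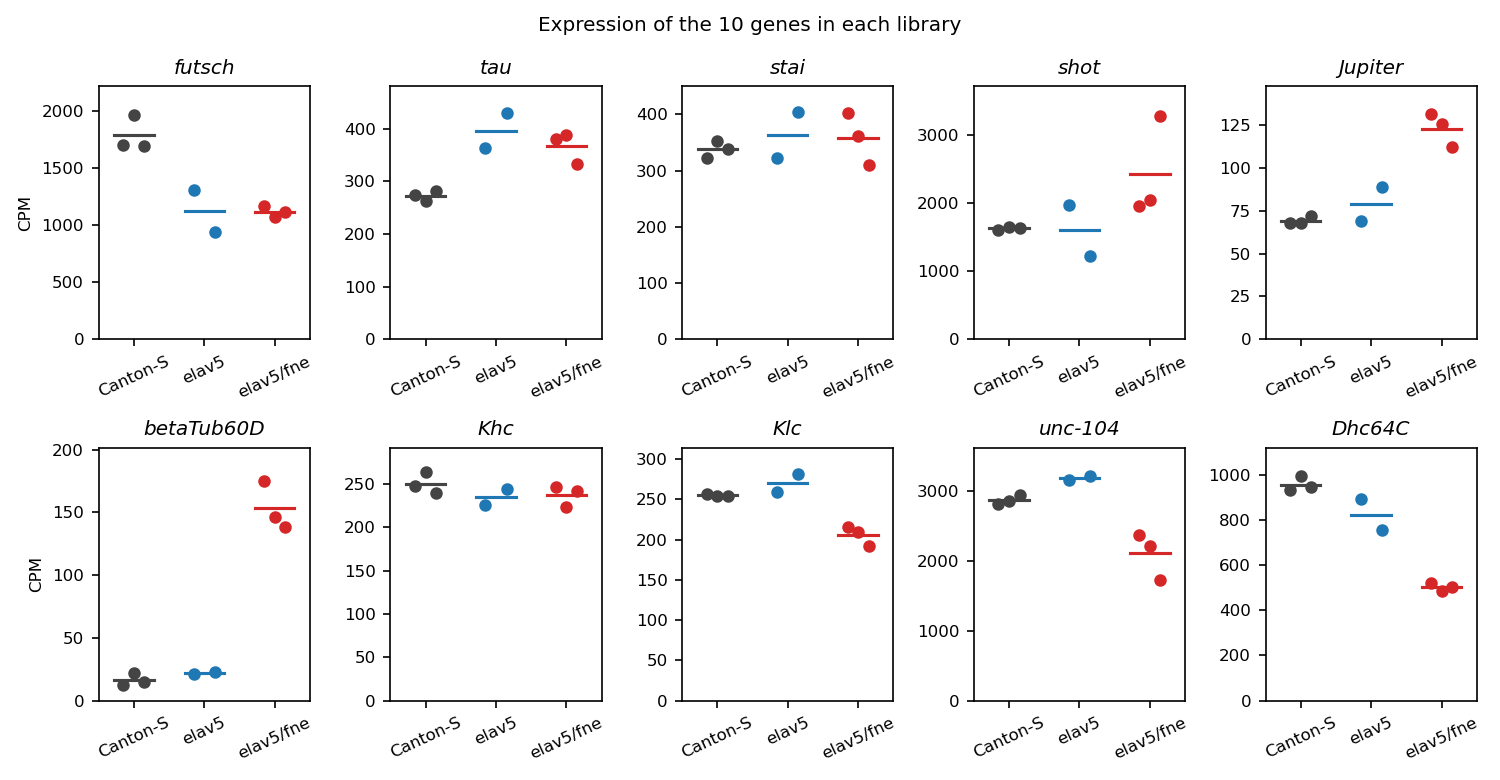
Expression in CPM (vertical axes, from 0) of each of the 10 genes, with 1 point per library and a bar at the mean of each genotype on the horizontal axis. The 3 elav5/fne libraries stand apart from all other libraries for betaTub60D (138 to 175 CPM), Jupiter (112 to 131 CPM), Klc, unc-104 and Dhc64C, while for futsch and tau both mutants stand apart from Canton-S.

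futsch (FBgn0259108, X:1409069-1453686, plus strand, Release 6 coordinates) encodes the fly MAP1B-like protein, which organises microtubules in axons and at the neuromuscular junction. Canton-S replicates 1 to 3 had 1703, 1969.9 and 1699 CPM of futsch, elav5 replicates 1 and 2 had 1314 and 943 CPM, and elav5/fne replicates 1 to 3 had 1166, 1069.8 and 1119 CPM. Values below follow the same order of replicates. Every mutant library was below every Canton-S library, and the elav5 libraries lay on either side of the elav5/fne libraries. The log2 change was -0.68 in elav5/fne (SE 0.13, adjusted p = 0.0032) and -0.68 in elav5 (SE 0.15, adjusted p = 0.019). Between the mutants it was 0.01, with a 95% interval from -0.34 to 0.35 (adjusted p = 0.98), a difference whose sign turned under other scalings. The call in elav5 was lost without Canton-S replicate 1 (adjusted p = 0.054), Canton-S replicate 2 (adjusted p = 0.064) or elav5 replicate 2, where the change was -0.44 (adjusted p = 0.056). In bulk RNA, fewer cells of a type and less RNA per cell cannot be told apart. In elav5/fne 11 of 12 neuron markers fell and none rose (median -1.01), and 9 of 10 neuroblast markers rose and none fell (median 2.42). Over the 21 alternatives these counts were 11 or 12 and 9. Of all tested genes 26.7% fell and 32.5% rose. In elav5 3 of 12 neuron markers fell and 4 of 10 neuroblast markers rose, beside 11.8% and 8.29% of all genes. These counts were less firm, since median-ratio scaling, TMM, edgeR, and leaving out any Canton-S library or elav5/fne replicate 1 each gave 0 neuron markers lower. Without elav5 replicate 2 it was 1 neuron and 2 neuroblast markers, without elav5/fne replicate 2 it was 1 neuron marker, and without Canton-S replicate 1 it was 2 neuroblast markers. Their part in the changes of futsch and of the other genes was not tested.

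tau (FBgn0266579, 3R:27639886-27656996, minus strand) encodes the fly homologue of the microtubule-binding protein MAPT. Its transcript moved opposite to that of futsch, with Canton-S values of 274, 262 and 282 CPM, elav5 values of 364 and 429 CPM, and elav5/fne values of 381, 388 and 332 CPM. All 5 mutant libraries exceeded all 3 Canton-S libraries, and the mutants overlapped. The change was 0.53 in elav5 (SE 0.10, adjusted p = 0.012) and 0.43 in elav5/fne (SE 0.09, adjusted p = 0.0047), which is 1.45 and 1.35 times the mean CPM of Canton-S. Between the mutants the difference was -0.11 (95% interval -0.34 to 0.13, adjusted p = 0.41). The call in elav5 was lost without elav5 replicate 2, at 0.42 (adjusted p = 0.058). In elav5/fne both futsch and tau kept their call in all 21 alternative analyses.

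Jupiter (FBgn0051363, 3R:11590386-11619906, minus strand) encodes a protein that decorates microtubules, in neurons as well as in embryonic cells. Its Canton-S libraries had 67.7, 68.1 and 71.6 CPM, its elav5 libraries 69.0 and 88.98 CPM, and its elav5/fne libraries 131, 126 and 112 CPM. The elav5/fne libraries were above the other 5, whereas elav5 replicate 1 lay within the Canton-S range. The rise in elav5/fne was 0.82 against Canton-S (SE 0.11, adjusted p = 3.7e-04) and 0.64 against elav5 (SE 0.12, adjusted p = 0.0036), and both calls were kept in all 21 alternatives. For elav5 against Canton-S the change was 0.18, with an interval from -0.09 to 0.45 (adjusted p = 0.32).

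stai (FBgn0266521, 2L:6100377-6124653, plus strand) encodes stathmin, which binds free tubulin dimers and, in flies, is needed for the stability of motor axons. In Canton-S its values were 321, 353 and 339 CPM, in elav5 they were 323 and 405 CPM, and in elav5/fne 402, 361 and 309 CPM. The 3 genotypes overlapped. The differences from Canton-S were 0.07 in elav5/fne (interval -0.20 to 0.35, adjusted p = 0.61) and 0.10 in elav5 (interval -0.21 to 0.41, adjusted p = 0.64). Their signs turned under some alternatives.

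shot (FBgn0013733, 2R:13864237-13942110, minus strand) encodes the spectraplakin that links microtubules to actin, in axons and also in tendon cells and epidermis. Its 3 Canton-S libraries lay close together, at 1611, 1642 and 1628 CPM. The mutants were far more spread, at 1973 and 1229.5 CPM in elav5 and at 1957, 2052 and 3280.1 CPM in elav5/fne. The elav5/fne libraries were all above Canton-S but overlapped elav5. The change in elav5/fne against Canton-S was 0.54 (SE 0.23, interval -0.00201 to 1.08) and did not pass the threshold (adjusted p = 0.079), nor did the difference between the mutants, at 0.60 (SE 0.26, adjusted p = 0.097). Against Canton-S shot passed in 6 of the 21 alternatives. On all libraries of both genotypes it did so with quantile normalization (0.68, adjusted p = 0.039), with DESeq2 (0.51, adjusted p = 0.028), in a fit of those 2 genotypes alone (adjusted p = 0.047) and without elav5 replicate 1 or 2 (adjusted p = 0.047 each). Without elav5 replicate 2 and elav5/fne replicate 3 together the change was smaller, 0.30, and was called (adjusted p = 0.0018). Between the mutants it passed without elav5 replicate 1, at 0.94 (adjusted p = 0.034). The highest library, elav5/fne replicate 3, also had the highest muscle (17652 CPM), gut (641 CPM), tracheal and epidermal (1061 CPM) and tendon (1191 CPM) marker sums. The lowest, elav5 replicate 2, had the lowest muscle (1430.3 CPM), tracheal and epidermal (202 CPM) and tendon (164 CPM) sums. Most of the tendon sum of elav5/fne replicate 3 was vkg, at 981 CPM, which stood at 8.71 CPM in elav5 replicate 2. The tendon marker sr went the other way, at 26.0 CPM in elav5/fne replicate 3 and 121.6 CPM in elav5 replicate 2. In elav5/fne against Canton-S 4 of 6 tendon markers rose and 1 fell, and 6 of 12 tested tracheal and epidermal markers rose and none fell, though 2 rose without Canton-S replicate 1 or 3. The part of these markers in the values of shot was not tested.

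betaTub60D (2R:24305881-24313099, plus strand) encodes beta-3 tubulin, known from developing muscle and from chordotonal organs as well as from the nervous system. In Canton-S it was low, with 12.4, 22.3 and 14.6 CPM, and the elav5 libraries had 21.4 and 23.1 CPM. In elav5/fne it stood at 175, 146 and 138 CPM, above the other 5 libraries by a wide margin. The log2 change was 3.18 against Canton-S (SE 0.20, interval 2.72 to 3.63, adjusted p = 7.7e-06) and 2.73 against elav5 (SE 0.22, adjusted p = 5.3e-05), or 9.32 and 6.90 times the mean CPM. For elav5 against Canton-S it was 0.45 (interval -0.06 to 0.96, adjusted p = 0.18), and without Canton-S replicate 2 it was 0.68 and called (adjusted p = 0.035).

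The rise of betaTub60D also held within the beta-tubulin genes. It made up 0.979%, 1.32% and 1.02% of the reads of the 4 beta-tubulin genes in Canton-S, 2.07% and 1.78% in elav5, and 7.90%, 7.51% and 8.09% in elav5/fne. The widest 95% Wilson interval was from 7.88% to 8.31%, and it covers counting error only. Relative to betaTub56D, the beta-tubulin gene with the most reads, the ratio was 0.0115 ± 0.00193 in Canton-S (n = 3), 0.0206 ± 0.00233 in elav5 (n = 2) and 0.0915 ± 0.00540 in elav5/fne (n = 3). The genotypes did not overlap. In a two-sided exact permutation test p was 0.1 for elav5/fne against Canton-S, the smallest that 3 against 3 libraries allow, and 0.2 for each pair with elav5, the smallest that 3 against 2 allow (adjusted p = 0.22 over 12 tests of 4 ratios). Beta-tubulin genes are alike in sequence, and how the authors' counting treated shared reads is not given in the sources used here.

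Muscle markers were higher in elav5/fne, where 15 of 20 rose against Canton-S and none fell (median 1.96), beside 32.5% and 26.7% of all genes. The count was 9 without Canton-S replicate 2 and 8 without Canton-S replicate 3 or elav5/fne replicate 2. betaTub60D was highest in elav5/fne replicate 1, with a muscle sum of 3602 CPM, and lowest of its group in elav5/fne replicate 3, with 17652 CPM. In elav5 replicate 1, with a muscle sum of 3517 CPM, it stood at 21.4 CPM. Without elav5 replicate 2 and elav5/fne replicate 3 together betaTub60D was called against Canton-S, and 16 of the 20 muscle markers were higher (median 1.33). Chordotonal markers were also higher, with 5 of 8 tested risen and 1 fallen, and sums between 74.9 and 110 CPM in elav5/fne against 55.5 to 61.2 CPM in Canton-S and 51.7 to 56.3 CPM in elav5. The chordotonal markers that rose came to 3 with quantile normalization or without Canton-S replicate 2, and to 1 with a mean of 5 CPM as filter. The part of the muscle and chordotonal markers in the rise of betaTub60D was not tested.

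**Figure D2:**
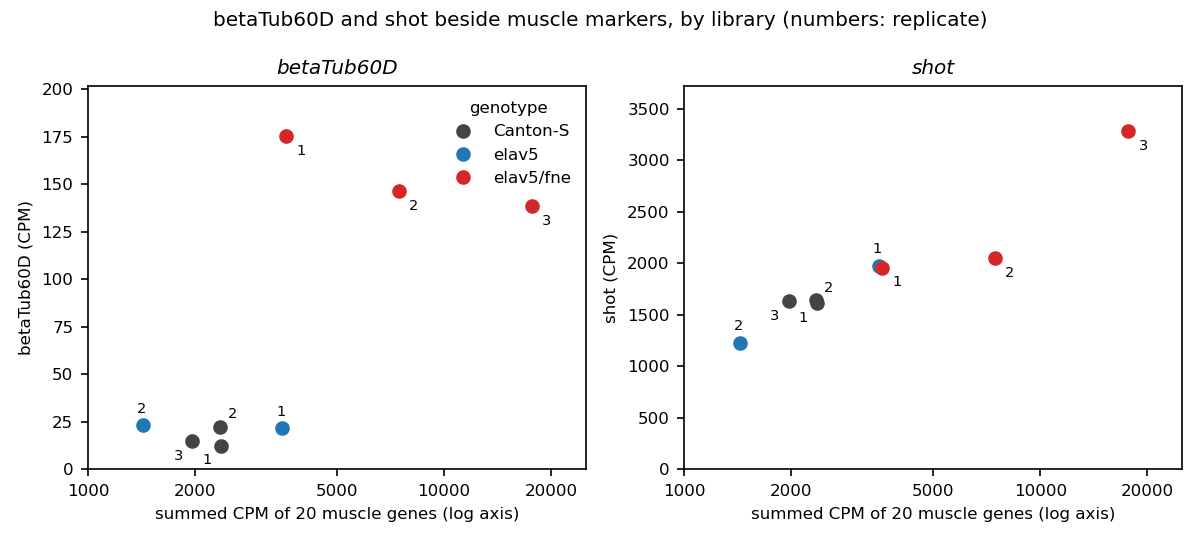
betaTub60D (left) and shot (right) in CPM on the vertical axes against the summed CPM of 20 muscle genes on a log axis, with 1 numbered point per library, coloured by genotype. betaTub60D stands at 175 CPM in elav5/fne replicate 1 and at 21.4 CPM in elav5 replicate 1, which have muscle sums of 3602 and 3517 CPM, and shot is lowest and highest in the libraries with the lowest and highest muscle sums.

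Conventional kinesin (kinesin-1), the main plus-end motor of axons, is built from heavy chains encoded by Khc and light chains encoded by Klc. Khc (FBgn0001308, 2R:16266960-16271971, minus strand) had Canton-S values of 248, 263 and 239.6 CPM, elav5 values of 225 and 244 CPM and elav5/fne values of 246, 224 and 242 CPM. The genotypes overlapped throughout. The difference of elav5/fne from Canton-S was -0.08 (interval -0.24 to 0.09, adjusted p = 0.38), that of elav5 was -0.09 (interval -0.27 to 0.09, adjusted p = 0.44), and that between the mutants was 0.02 (interval -0.16 to 0.20, adjusted p = 0.87), the last with a sign that turned under other scalings. With TMM scaling the first was -0.19 and was called (adjusted p = 0.047).

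Klc (FBgn0010235, 3L:12746616-12750056, minus strand), whose protein ties the heavy chain to cargo, was even in Canton-S, with 257, 254 and 255 CPM, and had 259 and 281 CPM in the elav5 libraries and 215, 209 and 192 CPM in those of elav5/fne. The elav5/fne libraries were below all others and the elav5 libraries were above all others. Klc fell by 0.31 on the log2 scale in elav5/fne against Canton-S (SE 0.07, adjusted p = 0.0047) and was lower by a change of -0.39 against elav5 (SE 0.07, adjusted p = 0.0042), while for elav5 against Canton-S the change was 0.08 (adjusted p = 0.50). Both calls were kept in all 21 alternatives. The fall is small, to 0.805 times the Canton-S mean. The gene CG32109 on the opposite strand shares 155 exon bases with Klc and stood at 9.67 to 16.8 CPM. Protein-coding genes on the same strand overlap exons of other genes of the 10. CG42392 (29.7 to 53.2 CPM) shares 168 exon bases with unc-104. Gr2a (0.705 to 1.86 CPM) shares 1186 with futsch, and CG18808 (0.436 to 1.29 CPM) shares 39 with Dhc64C.

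unc-104 (FBgn0267002, 2R:16751503-16772671, minus strand) encodes the kinesin-3 motor that carries synaptic vesicle precursors. The Canton-S libraries held 2813, 2861 and 2936 CPM of it, the elav5 libraries 3160.15 and 3216 CPM, and the elav5/fne libraries 2375, 2214.5 and 1732 CPM. As for Klc, the elav5/fne libraries were lowest and the elav5 libraries highest. The change was -0.46 against Canton-S (SE 0.13, adjusted p = 0.016) and -0.61 against elav5 (SE 0.14, adjusted p = 0.011), or 0.734 and 0.661 times the mean CPM. For elav5 against Canton-S it was 0.15 (interval -0.18 to 0.48, adjusted p = 0.49). The call against Canton-S was lost with no filter on low values (adjusted p = 0.053), without Canton-S replicate 2 (adjusted p = 0.052) and without Canton-S replicate 3 (adjusted p = 0.057). The call against elav5 was lost in a fit of those 2 genotypes alone (adjusted p = 0.058).

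Dhc64C (FBgn0261797, 3L:4807368-4825687, minus strand) encodes the heavy chain of cytoplasmic dynein, the motor of retrograde transport. With wild-type values of 929, 992 and 944 CPM, it was at 890.4 and 756 CPM in elav5 libraries and at 522, 484 and 503 CPM in elav5/fne libraries. The 3 genotypes did not overlap and lay in that order. The fall in elav5/fne was -0.92 against Canton-S (SE 0.08, interval -1.11 to -0.73, adjusted p = 5.0e-05) and -0.70 against elav5 (SE 0.09, adjusted p = 6.2e-04), and all 21 alternatives kept both calls. For elav5 against Canton-S the change was -0.22 (interval -0.43 to -0.01) and did not pass (adjusted p = 0.13), but it did without elav5 replicate 1, at -0.34 (adjusted p = 0.034).

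**Figure D3:**
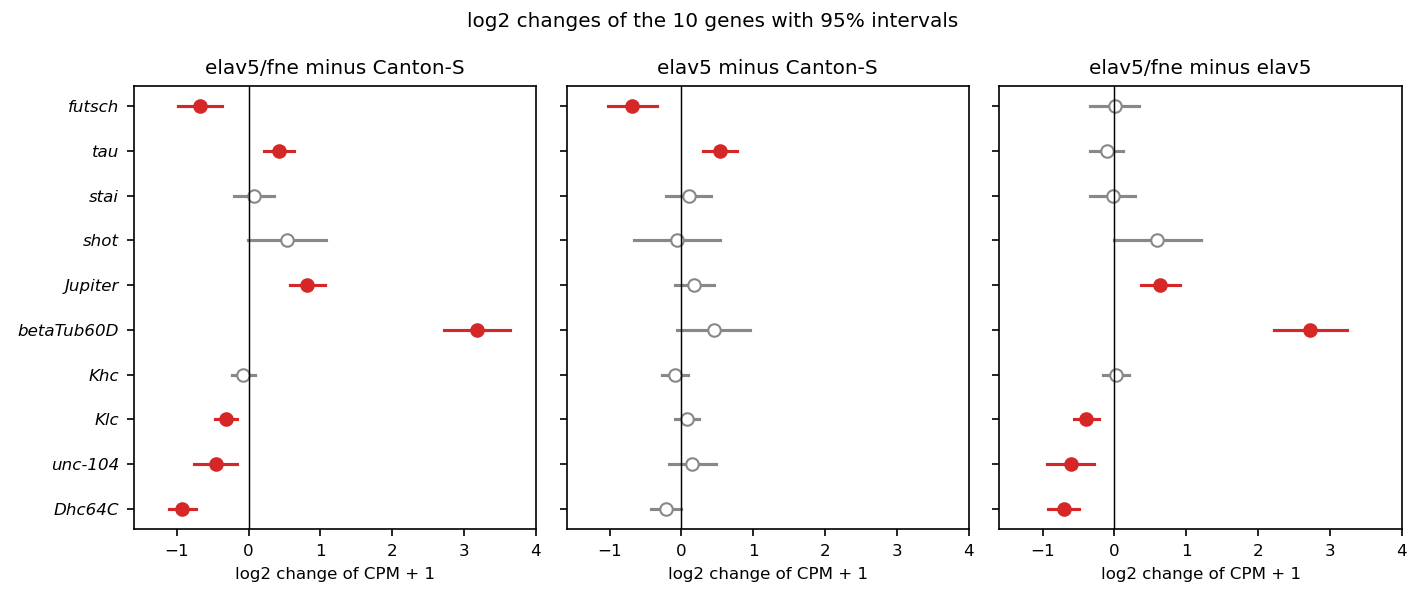
log2 changes of CPM + 1 (horizontal axes) of the 10 genes for the 3 comparisons, with points at the estimates, lines for 95% intervals, and filled red points for an adjusted p under 0.05. In elav5 against Canton-S the called genes are futsch (-0.68) and tau (0.53), and between the mutants they are Jupiter, betaTub60D, Klc, unc-104 and Dhc64C.

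Ratios of motor transcripts within a library do not depend on how libraries are scaled to each other. The ratio of Klc to Khc was 1.02 ± 0.0501 in Canton-S (n = 3), 1.15 ± 0.00513 in elav5 (n = 2) and 0.867 ± 0.0698 in elav5/fne (n = 3). That of Dhc64C to Khc was 3.82 ± 0.103, 3.53 ± 0.600 and 2.12 ± 0.0427 in the same order, and that of unc-104 to Khc was 11.5 ± 0.705, 13.6 ± 0.578 and 8.90 ± 1.52. For each ratio the elav5/fne libraries were below all others. The elav5 libraries were above Canton-S for Klc and unc-104 and on either side of it for Dhc64C. Each test of elav5/fne against Canton-S gave an exact two-sided permutation p of 0.1 (adjusted p = 0.22), the smallest the design allows. The tests of elav5/fne against elav5 gave exact p = 0.2, also the smallest, as did those of elav5 against Canton-S for Klc and unc-104. For Dhc64C elav5 against Canton-S gave exact p = 0.8.

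Levels can be compared between genes only per length. In CPM per kilobase of annotated exon, unc-104 was highest in Canton-S, at 355.8 ± 7.69, followed by Klc at 124 ± 0.722, stai at 89.1 ± 4.13 and futsch at 76.8 ± 6.66 (n = 3 each). Khc at 67.3 ± 3.25 and Dhc64C at 65.4 ± 2.26 followed, with ranges that overlapped. Below them stood shot at 53.5 ± 0.515, tau at 37.6 ± 1.35, Jupiter at 27.4 ± 0.865 and betaTub60D at 6.53 ± 2.06, each apart from the next. Scaled to the longest annotated transcript instead, tau moved from rank 8 to rank 5, so its place depends on which of its 14 transcripts is used. In elav5 the first 3 places stayed with unc-104, Klc and stai, and the ranges from Khc at 63.1 ± 3.46 to futsch at 48.4 ± 11.2 overlapped from each gene to the next (n = 2). In elav5/fne unc-104 stayed highest at 261 ± 41.5. Neighbours from Klc at 99.5 ± 5.71 through stai, shot and Khc to betaTub60D at 60.9 ± 7.71 overlapped, and Dhc64C was lowest at 34.5 ± 1.30 (n = 3).

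**Figure D4:**
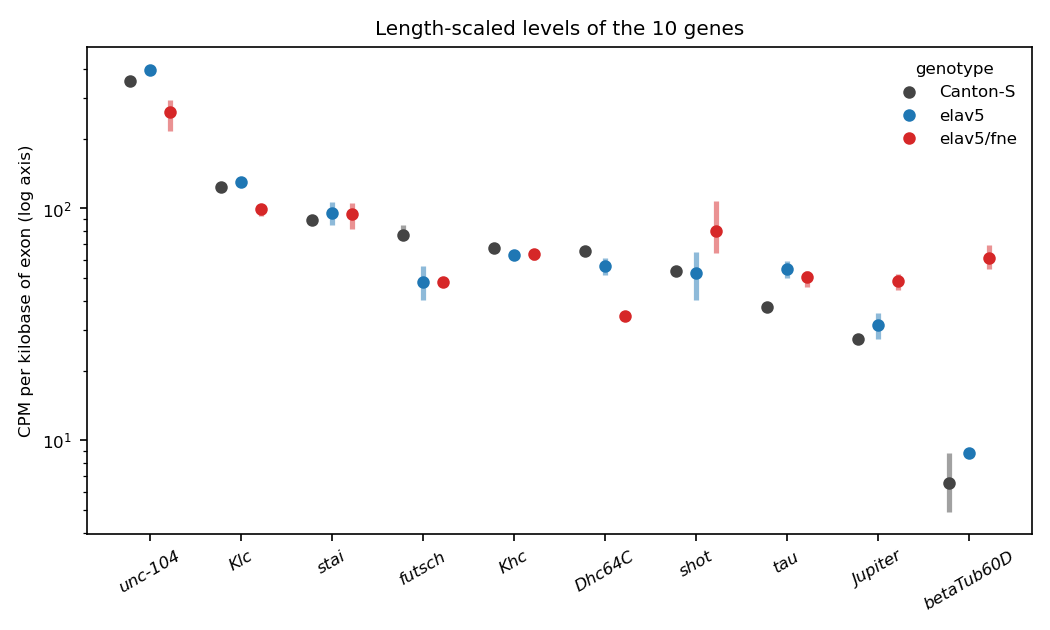
Mean CPM per kilobase of exon (vertical log axis) of the 10 genes in each genotype, with lines from the lowest to the highest library. betaTub60D stands at 6.53 in Canton-S and 60.9 in elav5/fne, and Dhc64C at 65.4 and 34.5.

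The other genes of the pathway were described from 7 lists. Among 10 transport kinesin genes, Khc, Klc and unc-104 included, 6 fell and 1 rose in elav5/fne against Canton-S, where 26.7% of all tested genes fell and 32.5% rose. The median was -0.39, beside 0.07 over all genes, and over the 21 alternatives 5 to 7 of the list fell. Klp64D and Klp68D, both motor genes of the kinesin-2 family, fell most. Klp64D fell from 151 ± 2.17 to 61.2 ± 3.11 CPM (log2 change -1.29, adjusted p = 3.1e-06) and Klp68D from 172 ± 16.0 to 63.5 ± 5.86 CPM (-1.42, adjusted p = 2.6e-05). Their accessory subunit gene Kap3 fell from 106 ± 3.23 to 71.3 ± 2.95 CPM (-0.57). The kinesin-3 gene Khc-73 fell from 1067 ± 4.33 to 656 ± 37.5 CPM (-0.70). The gene that rose was Kif3C, from 4.60 to 14.0 CPM on average (1.44, adjusted p = 7.4e-04), named here after its values were seen. In elav5 limma, edgeR and DESeq2 each called 0 of the 10, and 1 was lower at an unadjusted p of limma under 0.05. The median there was 0.06, and -0.00974 without elav5 replicate 2. Between the mutants 6 were lower and 1 higher (median -0.49), beside 16.7% and 26.8% of all genes.

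The mitotic kinesins, motors of the dividing cell's spindle, had more rises than falls. Of the 10 tested among 12, 7 rose and none fell in elav5/fne (median 0.65), beside 32.5% and 26.7% of all tested genes, with nod rising from 3.27 to 13.6 CPM (1.77, adjusted p = 2.4e-05), Klp61F, the spindle kinesin-5, from 9.71 to 19.2 CPM (0.91), ncd, a minus-end kinesin, from 10.8 to 18.9 CPM (0.76) and Klp10A, a microtubule depolymerase, from 106 to 142 CPM (0.42). Under quantile normalization 6 rose and 1 fell. nod also rose in elav5 (1.13, adjusted p = 0.0049), where 1 of the 10 rose and 2 fell, beside 8.29% and 11.8% of all genes. The falls came to 1 without Canton-S replicate 1 or 2 and to 0 without elav5 replicate 2. Between the mutants 8 were higher, beside 26.8% of all genes. The median there was 0.76, and over the 21 alternatives it lay between 0.51 and 0.86. The 9 of 10 neuroblast markers that rose in elav5/fne moved with these genes, and their part was not tested.

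Dhc64C was one of 18 dynein and dynactin genes, of which 7 fell and 3 rose in elav5/fne (median -0.16), beside 26.7% and 32.5% of all genes. In elav5 2 fell and none rose (median 0.02), beside 11.8% and 8.29% of all genes. The falls there came to 0 with quantile normalization or without elav5 replicate 2, where the median was -0.07, and to 1 without any one Canton-S library or without elav5/fne replicate 1 or 2. Without elav5 replicate 1, 2 rose. ctp, the LC8 light chain, fell from 657 ± 5.94 to 373 ± 12.8 CPM (-0.82, adjusted p = 5.8e-05), BicD, a cargo adaptor, from 261 ± 7.59 to 175 ± 9.60 CPM (-0.57, adjusted p = 2.1e-04) and Arp1, the filament subunit of dynactin, from 117 ± 4.83 to 85.4 ± 8.43 CPM (-0.46). Among subunits that did not pass, sw, the intermediate chain, stood at 76.2 ± 3.06 and 73.3 ± 2.62 CPM (-0.06, adjusted p = 0.47) and Dlic, the light intermediate chain, at 178 ± 3.25 and 192 ± 3.89 CPM (0.11, adjusted p = 0.12), both named after their values were seen. Between the mutants 5 fell and 1 rose, beside 16.7% and 26.8% of all genes. The median of the 18 was -0.07 there, and turned to 0.0079 without elav5 replicate 2 and to 0.03 without elav5/fne replicate 3 as well.

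Of 7 adaptors that link motors to cargo, Rab3-GEF, which acts with unc-104 on synaptic vesicle precursors, fell from 773 ± 29.7 to 459 ± 41.2 CPM in elav5/fne (-0.75, adjusted p = 0.0012) and Arl8, a lysosomal and vesicle GTPase, from 86.3 ± 1.84 to 71.3 ± 6.16 CPM (-0.27, adjusted p = 0.033). These 2 falls of 7 stand beside 26.7% of all genes, and 1 of them was called without any one Canton-S library or without elav5/fne replicate 2 or 3. The mitochondrial adaptor genes Miro, at 0.21 (adjusted p = 0.061), and milt, at 0.14 (adjusted p = 0.13), did not pass. The median of the 7 was -0.01, and 0.04 under quantile normalization and 0.08 without elav5/fne replicate 3.

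Among 16 structural microtubule-associated genes, futsch and tau included, 4 rose and 3 fell in elav5/fne, lower shares than the 32.5% and 26.7% of all genes. The median of 0.06 was -0.01 with median-ratio scaling, -0.05 with TMM and -0.00715 with edgeR. Ank2, a giant axonal ankyrin, fell from 3718 ± 112 to 750 ± 103 CPM, at -2.32 the deepest fall of the list (adjusted p = 3.9e-06), and was at 3228 ± 364 CPM in elav5 (-0.21, adjusted p = 0.32). CRMP, a collapsin response mediator protein that binds tubulin, fell in both mutants, from 331 ± 17.2 CPM in Canton-S to 226 ± 26.9 in elav5 (-0.55, adjusted p = 0.01) and 124 ± 8.43 in elav5/fne (-1.41, adjusted p = 8.1e-06). Map205, a microtubule-binding protein, rose from 271 ± 22.2 to 370.2 ± 22.3 CPM in elav5/fne (0.45, adjusted p = 0.0021). In elav5 1 of the 16 rose and 2 fell, beside 8.29% and 11.8% of all genes. Without elav5 replicate 1, 2 rose and 4 fell, without Canton-S replicate 1 or 2 there was 1 fall, without elav5/fne replicate 3 there were 2 rises, and without elav5 replicate 2 limma called none, with 1 higher and 2 lower at an unadjusted p under 0.05.

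betaTub60D was one of 3 genes that rose among 9 tested tubulin genes in elav5/fne, beside 3 that fell (median 0.17). These shares are near the 32.5% and 26.7% of all genes. betaTub97EF, another minor beta-tubulin, rose from 27.4 ± 0.934 to 116 ± 23.1 CPM (2.02, adjusted p = 9.2e-06). alphaTub85E rose from 1.55 ± 0.749 to 20.3 ± 19.6 CPM (2.74, adjusted p = 0.0039), with 43.0 CPM in elav5/fne replicate 3 and 9.44 and 8.61 CPM in the other two. alphaTub84D fell from 186 ± 11.2 to 117 ± 11.2 CPM (-0.67, adjusted p = 5.6e-04) and also fell in elav5 (-0.46, adjusted p = 0.022). Its call in elav5 was lost with quantile normalization and without Canton-S replicate 1 or Canton-S replicate 2. The much-read alphaTub84B, named after its values were seen, and betaTub56D had changes of 0.17 (adjusted p = 0.34) and 0.25 (adjusted p = 0.20). alphaTub84B and alphaTub84D are near-identical copies, so how the reads were split between them is uncertain. Without elav5 replicate 2 and elav5/fne replicate 3 together, 5 tubulin genes rose and 2 fell.

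Enzymes that modify, sever or fold tubulin were mixed. In elav5/fne 5 of 14 tested genes were lower and 2 higher (median -0.07), beside 26.7% and 32.5% of all genes. In elav5 3 were lower and 1 higher (median -0.17), beside 11.8% and 8.29% of all genes. The 2 higher in elav5/fne came to 1 in 12 of the 21 alternatives, among them leaving out any one Canton-S library or elav5/fne replicate 1 or 2. In elav5, 1 was lower with median-ratio scaling, with quantile normalization, or without Canton-S replicate 1, Canton-S replicate 2 or elav5 replicate 2. None was higher there without Canton-S replicate 1 or elav5 replicate 2. TTLL5, a tubulin glutamylase, fell from 72.7 ± 4.98 to 19.5 ± 0.900 CPM (-1.84, adjusted p = 2.3e-06), with 56.2 ± 3.10 CPM in elav5 (-0.37, adjusted p = 0.029). Atat, the alpha-tubulin acetyltransferase gene listed as Tat in the table, fell from 235 ± 2.82 to 106 ± 8.65 CPM (-1.15, adjusted p = 1.1e-05). Of the katanin-type severing enzymes, kat-60L1 fell from 121 ± 3.10 to 71.3 ± 6.38 CPM (-0.76) and Kat60 rose from 46.7 ± 2.91 to 69.3 ± 3.34 CPM (0.56).

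**Figure D5:**
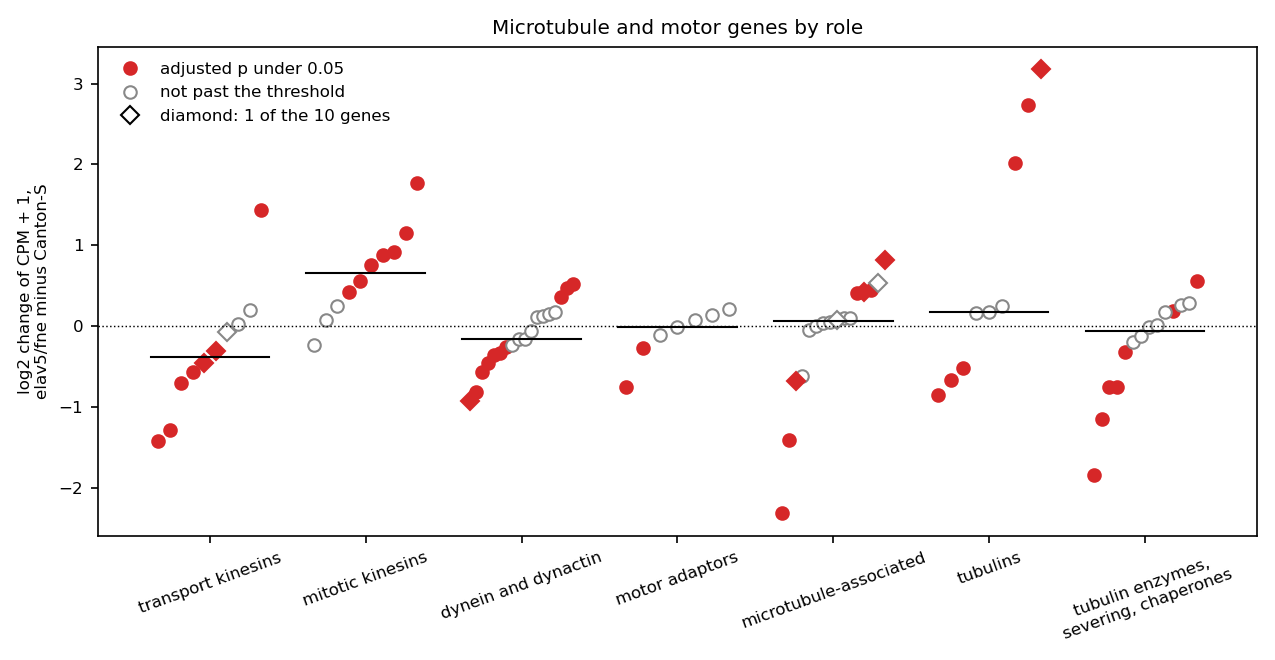
log2 change of CPM + 1 in elav5/fne against Canton-S (vertical axis) of each tested gene of the 7 lists, with a bar at each list's median, filled points for an adjusted p under 0.05 and diamonds for the 10 genes. The transport kinesin median lies at -0.39 and the mitotic kinesin median at 0.65, and betaTub60D at 3.18 is the highest point.

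Likeness of pattern was described by Pearson's r of log2(CPM + 1) over the 8 libraries, among 8026 genes with a mean of at least 5 CPM. The points share their genotypes and libraries, and no p is given. Klc was closest to Lis-1 (r = 0.998), which encodes a dynein regulator and itself fell in elav5/fne (-0.34, adjusted p = 0.0061), and to gammaSnap1 (0.994). The genes closest to unc-104 were beat-Ia (0.992) and beat-IIIb (0.991), of a family of axon guidance proteins, and those closest to Dhc64C were Lkr (0.998) and Dop1R1 (0.993), a neuropeptide and a dopamine receptor gene. Jupiter was closest to Syx5 (0.995) and E(spl)mgamma-HLH (0.995), betaTub60D to Glos (0.997) and AnxB11 (0.996), futsch to Fip1 (0.994) and Psi (0.979), and tau to snoRNA:Tudor-SN-a (0.983) and maf-S (0.979). For shot they were bru2 (0.986) and snu (0.976). stai and Khc had weaker partners, CG12237 (0.909) and fabp (0.893), and mtDNA-helicase (0.938) and Pfdn2 (0.926). Among the 10 themselves the closest pairs were Klc with unc-104 (0.967) and Jupiter with betaTub60D (0.955).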

How the data were processed

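The authors deposited CPM per gene for 8 libraries, and the submitters' processing notes name HISAT2 and dm6. Per the labels' protocols, a stranded TruSeq kit for total RNA was used on 0.1 ug of RNA. Aligner version, read counter, annotation and use of strand were not given in the sources used here, so values of overlapping and near-identical genes are uncertain. CPM columns sum to 1000000. Low values rose in steps of 1 read, from which whole reads were recovered for 100% of values (tolerance 0.01). Coordinates and exon lengths are from Ensembl BDGP6.54, matched by gene ID for 17710 of 17807 genes. The ID that the table gives for betaTub60D was not matched, and its coordinates were found by symbol.

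The 10 genes and the 17 lists (7 pathway, 10 marker) were chosen with earlier results of these data known. Of 206 list entries 204 were matched, 3 of them by another name, and mdr1 and yellow were not. A gene was tested if 2 or more libraries reached 1 CPM. The test was limma 3.58.1 in R 4.3.3, with the trend option, on log2(CPM + 1) of the 8 libraries together, with a mean for each of 3 genotypes. Adjustment was by Benjamini-Hochberg, with calls at 0.05. With 2 libraries, elav5 takes its spread largely from the other genotypes. Changes of low genes are understated by log2(CPM + 1). Ratios within libraries were tested by exact permutation. Tried as alternatives were 0.1 and 5 CPM as pseudocount, no filter and a mean of 5 CPM as filter, median-ratio, TMM and quantile scaling, a replicate block, no trend, a fit of only the 2 groups compared, edgeR 4.0.16 and DESeq2 1.42.0 on the recovered reads, each library left out, and elav5 replicate 2 with elav5/fne replicate 3 left out together. edgeR called 6404, 1979 and 4313 genes for elav5/fne against Canton-S, elav5 against Canton-S and elav5/fne against elav5, where limma called 6259, 2124 and 4593.

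The genes named are the 10, the 4 of each pathway list with the smallest p in elav5/fne against Canton-S, the 2 most alike to each of the 10, and elav, fne and Rbp9, with exceptions said in place. From each marker list the 2 genes with the highest mean CPM would be named where a result turned on them. Only those of the tendon list, vkg and sr, were. The procedure was tested on simulated data.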

Additional observations from a re-analysis of the deposited data

How the results depend on the processing

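Over 21 alternatives each, 7 genes were called in elav5/fne against Canton-S in the analysis as reported and between 6 and 8 otherwise, 2 and between 0 and 3 in elav5 against Canton-S, and 5 and between 4 and 6 between the mutants. Leaving out each library in turn gave between 820 and 2550 called genes and between 0 and 3 of the 10 for elav5 against Canton-S, the lowest of both without elav5 replicate 2, with 905 genes without Canton-S replicate 1 and 1050.0 without Canton-S replicate 2. Of all recomputed values 766 were taken as unchanged. For changes of the 10 genes this means the same direction and side of the threshold. Ratios had only to keep their sign, ranks their place, and counts had to stay within a set factor. Of the other values 10 lost a call, 10 gained one, 11 counts or ranks moved and 33 changed sign, none of the latter called as reported. Quantile normalization moved the median of all genes from 0.07 to -0.11 in elav5/fne against Canton-S and from 0.14 to -0.07 between the mutants, and the share of called genes that were higher from 54.9% to 41.3% and from 61.6% to 43.0%. Median-ratio scaling and TMM gave 50.6% and 48.5% between the mutants, and TMM gave 46.5% in elav5/fne against Canton-S. The cause of the changes listed here was not tested.

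Sign changes were as follows. In elav5/fne against Canton-S stai was -0.00430 with median-ratio scaling and -0.0432 with TMM, and between -0.0142 and 0.17 with a library left out. In elav5 against Canton-S shot was 0.00629 with edgeR and 0.0392 with DESeq2, and between -0.40 and 0.28 with a library left out, stai was between -0.0647 and 0.26, and Jupiter between -0.00256 and 0.36. Without elav5 replicate 2 and elav5/fne replicate 3 together these 3 were 0.28 (called, adjusted p = 0.028), -0.0647 and -0.00256. Between the mutants, with median-ratio scaling, TMM, edgeR and DESeq2, futsch was -0.11, -0.14, -0.12 and -0.13 and Khc -0.10, -0.12, -0.0927 and -0.10, and stai was 0.0151 with quantile normalization. With a library left out, futsch was between -0.23 and 0.24, Khc between -0.0379 and 0.0737, stai between -0.19 and 0.14 and tau between -0.23 and 0.0102. With both libraries left out, futsch was -0.23, stai 0.24 and tau 0.0803. The log2 ratio of Dhc64C to Khc in elav5 against Canton-S was between -0.30 and 0.0488 with a library left out. By longest transcript the ranks of Khc, Dhc64C and shot in Canton-S were 6, 7 and 8.

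Same-numbered libraries had correlations of their deviations from the genotype means between -0.364 and 0.11. With 2 or 3 libraries per genotype these deviations offset each other, so they cannot decide whether the numbers pair the samples. With the replicate number as a block, 5751, 932 and 3545 genes and 7, 0 and 5 of the 10 were called in the 3 comparisons, futsch and tau in elav5 having adjusted p = 0.058 and 0.052, shot in elav5 against Canton-S was 0.0560, and stai between the mutants was 0.0243.

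At 3 against 2 or 3 libraries the exact tests could not pass the threshold, which limits the ratios. Depth does not limit the 10 genes, the lowest of which had 387 reads in a library.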
